A study of Rattus norvegicus with 4 samples.

Results

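The mRNAs described here are those of 42 genes of DNA replication and mitosis, chosen by name. A probe was assigned to a gene when its gene name in the scanner files, without an ending such as _predicted, or its RefSeq transcript matched. Of the 42 genes, 39 had a probe, among 36279 gene names on the array. Mki67, the proliferation antigen, the helicase subunit Mcm3 and the pocket protein Rbl1 had none under these names. Cenpf, Kif11 and Nusap1, which act at kinetochores and on spindle microtubules, had probes that were not well above background on every array of any RNA group. That left 36 measured genes, here called members, and 32 of them were well above background in all RNA. Mcm4, Mcm5 and Prc1 were kept through whole co-culture alone.

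Astrocytes came from cortex of newborn (P1) Wistar rats, and the neurons plated on them came from hippocampus of E18 mouse embryos. Whole co-culture (CC) was compared with co-culture from which neurons had been detached by a stream of ice-cold PBS, the cold jet (CC-CJ), and with astrocytes cultured alone and also given cold jet (AA-CJ). Each of 4 arrays with 2 colours carried CC-CJ RNA in Cy3, 2 arrays against AA-CJ and 2 arrays against CC, both in Cy5. The question put to the members was whether contact with neurons changes proliferation genes in CC-CJ versus AA-CJ, CC-CJ versus CC and CC versus AA-CJ. The first 2 comparisons share the CC-CJ condition and the last is the difference between them, so they are given side by side and are not independent. CC-CJ was never read in Cy5, so on any 1 array the effect of the dye cannot be told apart from that of the culture. A constant dye effect cancels between CC and AA-CJ. By the methods, replicates came from different pools of animals, and the labels do not tell whether arrays with the same replicate number carried the same CC-CJ RNA. Cells of CC-CJ and AA-CJ had cold jet and those of CC had none. Mouse mRNA in CC and CC-CJ was read by rat probes.

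A dividing cell licenses its origins with the Mcm helicase, makes nucleotides and copies DNA behind the clamp Pcna. Cyclins bound to Cdk2 start and sustain this copying, and cyclins bound to Cdk1 then drive the cell into mitosis. There the spindle checkpoint holds back Cdc20 until chromosomes are attached, and separase is freed when securin, encoded by Pttg1, is destroyed. Transcription of these genes is held down by E2F factors with Rb family pocket proteins in resting cells, and the late genes are driven through CCAAT boxes and the cell cycle homology region. Astrocytes of newborn rodents divide in culture, whereas neurons have left the cell cycle.

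The promoters of the 3 members with the lowest p-values in CC versus AA-CJ are shown, and motifs played no part in the choice. Each run is the 250 bases before the RefSeq start in the rat build GRCr8, 5′ to 3′ on the strand of the gene, and capitals mark matches on either strand to CCAAT or to the letters TTTGAA or TTCGAA of the cell cycle homology region.
Cdc20 (minus strand, chr5:137255800-137256049): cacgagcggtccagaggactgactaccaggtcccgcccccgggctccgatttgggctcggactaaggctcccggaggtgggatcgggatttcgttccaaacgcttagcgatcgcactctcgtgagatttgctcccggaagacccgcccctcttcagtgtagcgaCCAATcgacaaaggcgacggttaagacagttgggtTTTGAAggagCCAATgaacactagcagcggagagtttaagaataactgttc
Pttg1 (minus strand, chr10:28406327-28406576): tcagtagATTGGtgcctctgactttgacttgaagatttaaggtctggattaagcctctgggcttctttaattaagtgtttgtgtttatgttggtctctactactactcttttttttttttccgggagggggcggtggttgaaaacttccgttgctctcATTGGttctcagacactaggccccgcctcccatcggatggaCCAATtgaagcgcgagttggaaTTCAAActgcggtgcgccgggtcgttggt
Ccnb2 (minus strand, chr8:79981659-79981908): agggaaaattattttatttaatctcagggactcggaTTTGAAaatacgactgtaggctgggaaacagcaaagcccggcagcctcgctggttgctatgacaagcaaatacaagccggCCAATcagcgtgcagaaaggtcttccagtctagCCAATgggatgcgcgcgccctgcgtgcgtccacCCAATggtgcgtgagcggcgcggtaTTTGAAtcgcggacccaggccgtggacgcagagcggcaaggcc
Cdc20 had 2 CCAAT matches and 1 match to the homology region, Pttg1 had 3 and 1, and Ccnb2 had 3 and 2. The homology region nearest the start began 51 bases before it in Cdc20, 29 in Pttg1 and 43 in Ccnb2. Promoters of 33 of the 42 genes were in the RefSeq table. Of these, 11 held both motifs, or 33.3%, against 6.22% of 27457 rat promoters of the same length. CCAAT alone was found in 23 (69.7%, against 34.3% of all) and the homology region in 13 (39.4%, against 17.3%). Of the other cell cycle genes described further on, 21 of 66 promoters held both motifs (31.8%), 66.7% held CCAAT and 36.4% the homology region, so the arrangement is not particular to these 42 genes. E2F letters (TTTCCCGC, TTTGGCGC, TTTCGCGC or TTTGCCGC) were found in 7 (21.2%, against 1.81% of all and 9.09% of the 66), namely Mcm2, Mcm5, Mcm6, Mcm7, Tyms, Cdk1 and Rbl1. A match is a description of letters, not of binding, and the motifs were not searched with regard to overlap.

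Values on an array are log2 ratios, positive where CC-CJ was brighter, and a gene is the mean of its kept probes. Over the series, 50.1% to 62.6% of probes per channel were well above background, and 21769 genes were tested with limma over 4 arrays. The 2 arrays per comparison limit the precision. In CC-CJ versus AA-CJ, 420 genes (1.93%) were called higher and 249 (1.14%) lower at an adjusted p of 0.05 or less. In CC-CJ versus CC, 20 (0.0919%) were higher and 489 (2.25%) lower, and in CC versus AA-CJ, 560 (2.57%) were higher and 17 (0.0781%) lower. No member was called in either comparison of CC-CJ, and 2 of 36 were called higher in CC versus AA-CJ, against 2.57% of all genes. Counted at an unadjusted p of 0.05 or less in CC-CJ versus AA-CJ, 5 members were higher, against 10.8% of all genes, and 2 lower, against 11.7%. In CC-CJ versus CC, 9 were lower, against 11.7%, and 0 higher, against 5.06%. In CC versus AA-CJ, 7 were higher, against 11.4%, and 0 lower, against 6.28%. Medians over the 36 members were 0.06, -0.17 and 0.21 in that order, against -0.01, -0.02 and 0.0026 over all genes tested.

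**Figure D1:**
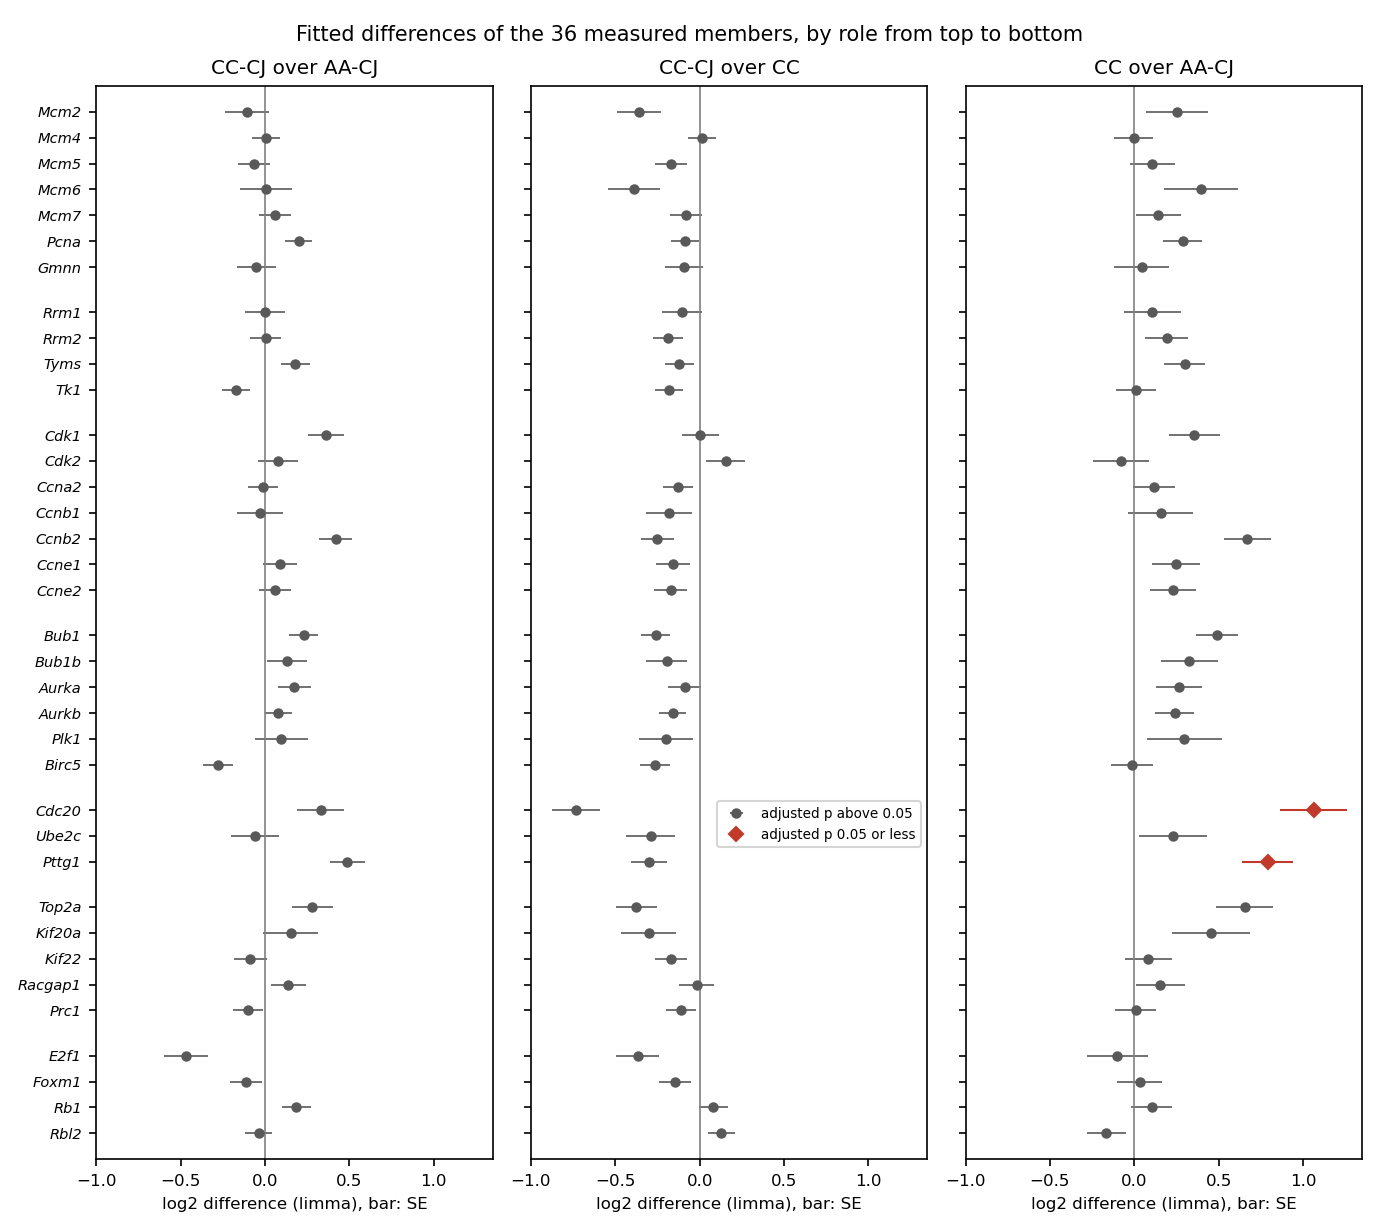
Log2 differences fitted by limma for the 36 members in each comparison, grouped by role from replication licensing at the top to transcription factors and pocket proteins at the bottom, with bars for 1 SE. Diamonds mark Cdc20 and Pttg1, the members with an adjusted p of 0.05 or less, both in CC over AA-CJ.

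Cdc20 and Pttg1 mRNA was called higher in whole co-culture, which had no cold jet, than in astrocytes alone, which had it. Cdc20, which activates the anaphase-promoting complex, had levels of 9.49 and 9.74 (log2, normalized per channel) in CC, 8.94 and 8.33 in AA-CJ, and 8.854 to 9.001 in CC-CJ over 4 arrays. Both CC levels lay above every other level, and 1 of the AA-CJ levels lay among those of CC-CJ. CC was 1.06 ± 0.20 (SE) above AA-CJ (limma, adjusted p = 0.0476). On the arrays, CC-CJ over AA-CJ gave 0.07 and 0.59 for Cdc20, and CC-CJ over CC gave -0.59 and -0.88. The latter came to -0.73 ± 0.14 (limma, adjusted p = 0.0547), and the former to 0.33 ± 0.14 (limma, adjusted p = 0.227). Its probe is placed at chr5:138913267-138914237 of rn4.

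Pttg1, which encodes securin, had levels of 11.09 and 11.02 in CC, 10.41 and 10.04 in AA-CJ and 10.70 to 10.77 in CC-CJ. The groups did not overlap, with CC-CJ between the others. CC was 0.79 ± 0.15 above AA-CJ (limma, adjusted p = 0.0493). CC-CJ over AA-CJ gave 0.31 and 0.66 on the arrays, a mean of 0.49 ± 0.11 (limma, adjusted p = 0.0611), and CC-CJ over CC gave -0.35 and -0.25, a mean of -0.30 ± 0.11 (limma, adjusted p = 0.234). The Pttg1 probe is placed at chr10:28527480-28527539 of rn4. The third gene of this role, Ube2c, the ubiquitin-conjugating enzyme of the complex, had levels of 7.93 and 7.91 in CC and of 8.10 and 7.47 in AA-CJ, which enclose those of CC.

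Both calls are close to the threshold. When an array is left out, its comparison rests on 1 array, which is assumed to vary like the 2 arrays of the other comparison, so these p-values take their spread from those arrays. With replicate 2 of the AA-CJ arrays left out, the adjusted p was 0.0721 for Cdc20 and 0.0985 for Pttg1. With replicate 2 of the CC arrays left out it was 0.123 and 0.1, and with replicate 1 of the CC arrays left out that of Pttg1 was 0.105 (limma). Neither was called with no background correction, Agilent's processed signals, an offset of 16, median centring, probes well above background throughout or a replicate block, and the authors' table called Cdc20 alone. The adjusted p over all alternatives run was 0.00596 to 0.228 for Cdc20 and 0.0313 to 0.234 for Pttg1 (limma). The low end for Cdc20 came from replicate numbers crossed as a block, a setting added after the data were seen. With the authors' table its adjusted p was 0.0179 (limma). The fitted difference stayed between 0.80 and 1.33 for Cdc20 and between 0.61 and 0.97 for Pttg1 under all alternatives run.

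**Figure D2:**
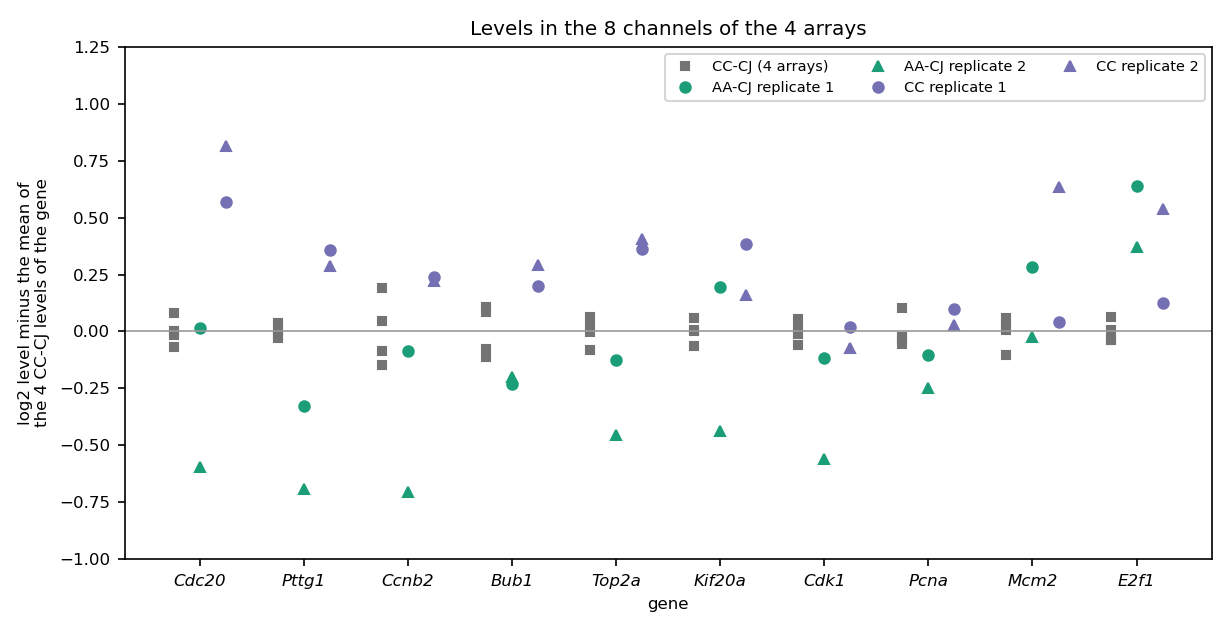
Log2 level of 10 members in the 8 channels of the 4 arrays, each minus the mean of the gene's 4 CC-CJ levels (grey squares). Both CC points lie above the CC-CJ points for Cdc20, Pttg1, Ccnb2, Bub1, Top2a, Kif20a and E2f1, and the AA-CJ replicates are far apart for Cdc20, Kif20a and Ccnb2.

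Among cyclins and kinases, Ccnb2, a mitotic cyclin, stood closest to these. Its levels were 7.57 and 7.55 in CC, 7.25 and 6.62 in AA-CJ and 7.18 to 7.52 in CC-CJ. CC lay above the rest, while replicate 1 of AA-CJ lay within the range of CC-CJ. CC over AA-CJ was 0.67 ± 0.14 (limma, adjusted p = 0.0658). CC-CJ over AA-CJ gave 0.28 and 0.56, a mean of 0.42 ± 0.10 (limma, adjusted p = 0.0710). Cdk1, the kinase that starts mitosis, gave 0.17 and 0.55 in CC-CJ over AA-CJ, a mean of 0.36 ± 0.11 (limma, adjusted p = 0.115). In CC-CJ over CC it gave -0.0034 and 0.013. The other 5 genes of this role, Cdk2, Ccna2, Ccnb1, Ccne1 and Ccne2, had means between -0.03 and 0.09 in CC-CJ versus AA-CJ. Each of these 5 was opposite in sign between the replicates of that comparison.

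Of the genes of chromosome structure, spindle and cytokinesis, Top2a, the topoisomerase that untangles sister chromatids, had 7.29 and 7.34 in CC, 6.81 and 6.48 in AA-CJ and 6.85 to 6.99 in CC-CJ. As means of 2 probes, the groups did not overlap. On the probe well above background in all RNA, AA-CJ had 7.223 and 6.648, and CC-CJ had 7.194 to 7.496, which overlap. CC over AA-CJ was 0.65 ± 0.17 for Top2a (limma, adjusted p = 0.118), and the arrays of CC-CJ over AA-CJ gave 0.04 and 0.52. Kif20a, a kinesin of the late spindle, gave -0.19 and 0.50 in CC-CJ over AA-CJ and -0.45 and -0.15 in CC-CJ over CC. Its AA-CJ levels, 9.23 and 8.60, lay on either side of all CC-CJ levels. Racgap1 and Kif22 gave -0.0056 and 0.28, and -0.18 and 0.01, in CC-CJ over AA-CJ. For Prc1, which bundles spindle microtubules, the probe did not exceed background clearly on any CC-CJ array and did so on 1 of 2 AA-CJ arrays. Prc1 was kept through CC alone and gave -0.19 and -0.03 in CC-CJ over CC.

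Among mitotic kinases and the spindle checkpoint, Bub1, a checkpoint kinase, had levels of 8.31 and 8.40 in CC, 7.88 and 7.91 in AA-CJ and 7.997 to 8.217 in CC-CJ. The groups did not overlap, with CC highest and AA-CJ lowest. CC over AA-CJ was 0.49 ± 0.12 (limma, adjusted p = 0.107). Birc5, or survivin, which sits on the inner centromere with Aurora B, gave -0.18 and -0.37 in CC-CJ over AA-CJ and -0.22 and -0.30 in CC-CJ over CC. It was below 0 on all 4 arrays, and CC over AA-CJ was -0.01 ± 0.12 (limma, adjusted p = 0.970). No position is given for its probe in the files. Aurka, Aurkb, Bub1b and Plk1 had means of 0.08 to 0.17 in CC-CJ versus AA-CJ and of -0.20 to -0.09 in CC-CJ versus CC. In CC-CJ over AA-CJ the replicates of Bub1b and Plk1 were opposite in sign, with -0.08 and 0.34, and -0.26 and 0.45.

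Among genes of licensing and the replication fork, Pcna, the clamp of the polymerases, gave 0.21 and 0.19 in CC-CJ over AA-CJ, the members' smallest gap between these 2 arrays but for Rbl2, and -0.13 and -0.05 in CC-CJ over CC. CC over AA-CJ was 0.29 ± 0.11 for Pcna (limma, adjusted p = 0.260). The 2 Pcna probes gave means of 0.33 and 0.07 in CC-CJ over AA-CJ. Mcm6 and Mcm2, subunits of the replicative helicase, gave -0.29 and 0.30, and -0.28 and 0.06, in CC-CJ over AA-CJ, opposite in sign between replicates. In CC-CJ over CC they gave -0.21 and -0.58, and -0.14 and -0.58, below 0 on both arrays. Mcm5 did not clearly exceed background on any CC-CJ array and did on 1 of 2 AA-CJ arrays. It was kept through CC alone and gave -0.05 and -0.30 in CC-CJ over CC. The kept Mcm4 probe exceeded background clearly in CC alone, though its levels were 6.32 and 6.36 in CC and 6.42 and 6.35 in AA-CJ. Another Mcm4 probe, not kept, did so in replicate 2 of AA-CJ and of CC. The kept probe gave 0.02 and 0.0005 in CC-CJ over CC. Mcm7 and geminin (Gmnn) gave means of 0.06 and -0.05 in CC-CJ over AA-CJ, each with replicates opposite in sign.

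For nucleotide synthesis, Tyms, which makes thymidylate, gave 0.10 and 0.26 in CC-CJ over AA-CJ and -0.15 and -0.09 in CC-CJ over CC. CC over AA-CJ was 0.30 ± 0.12 (limma, adjusted p = 0.271). The probe named Tk1, thymidine kinase, gave -0.20 and -0.14 in CC-CJ over AA-CJ, but the files place it on chromosome 3, while RefSeq has the gene on chromosome 10, so its identity is doubtful. It too was dim in CC-CJ on the arrays with CC, where CC-CJ over CC gave -0.12 and -0.24. Rrm1 and Rrm2, subunits of ribonucleotide reductase, had means of 0.0027 and 0.0042 in CC-CJ over AA-CJ, each with replicates opposite in sign. The 3 Rrm1 probes gave means of -0.22, 0.05 and 0.18 there, so the gene mean averages unlike values. Of these, only the first was well above background in all RNA, and it gave -0.37 and -0.55 in CC-CJ over CC.

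Of transcription factors and pocket proteins, E2f1, Foxm1, Rb1 and Rbl2 were measured. E2f1, a transcription factor of the G1/S transition, had levels of 9.04 and 8.77 in AA-CJ, 8.52 and 8.94 in CC and 8.36 to 8.46 in CC-CJ, so that CC-CJ lay below all other RNA and the other groups overlapped. CC-CJ over AA-CJ gave -0.63 and -0.31, a mean of -0.47 ± 0.13 (limma, adjusted p = 0.0961). CC-CJ over CC gave -0.16 and -0.57, a mean of -0.37 ± 0.13 (limma, adjusted p = 0.231). Since CC-CJ alone carried Cy3, dye and culture cannot be told apart for these ratios. Rb1, the retinoblastoma protein, gave 0.27 and 0.10 in CC-CJ over AA-CJ and 0.09 and 0.07 in CC-CJ over CC. Rbl2, encoding p130, the pocket protein of resting cells, gave -0.03 and -0.04 in CC-CJ over AA-CJ and 0.08 and 0.18 in CC-CJ over CC, and its probes gave means of 0.09 and -0.16 in the first of these. CC over AA-CJ was -0.17 ± 0.11 for Rbl2 (limma, adjusted p = 0.502), the lowest of the members, and 0.10 ± 0.12 for Rb1 (limma, adjusted p = 0.700). Foxm1, the factor of the late genes, gave -0.24 and 0.01 in CC-CJ over AA-CJ.

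**Figure D3:**
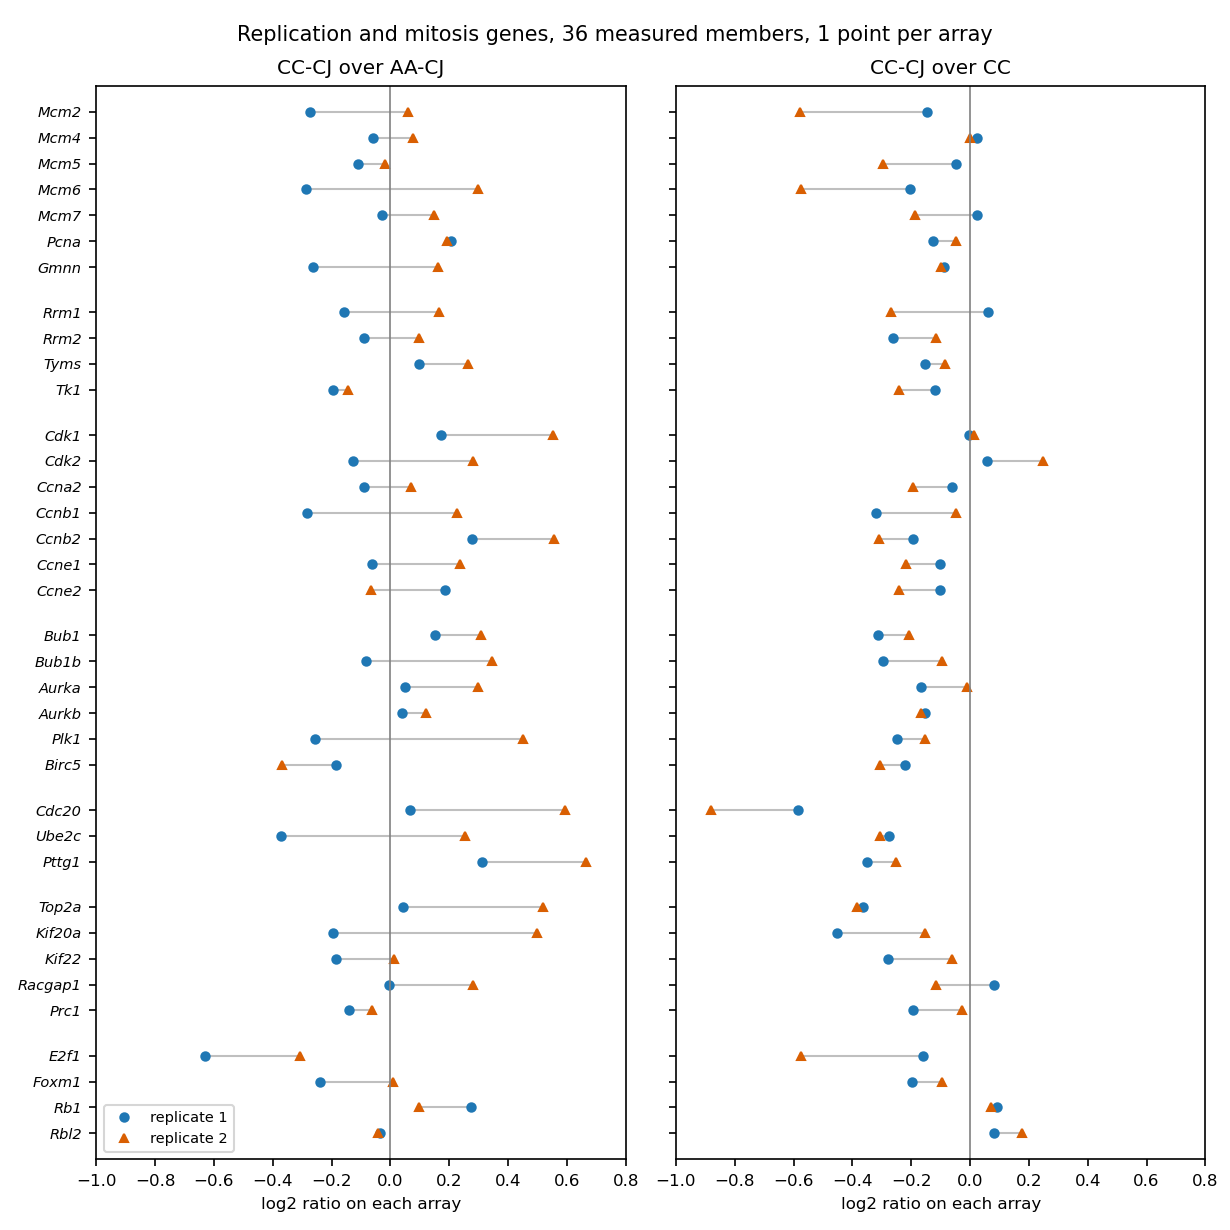
Log2 ratio of CC-CJ over AA-CJ (left) and over CC (right) for the 36 members, 1 point per array, with a line joining the replicates. On the left, replicate 2 lies to the right of replicate 1 for 31 members under the loess normalization, and on the right 28 members lie below 0 on both arrays, against 38.2% of all genes.

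Seen over all 36 members, the ratios leaned one way in CC-CJ versus CC and in CC versus AA-CJ, and in CC-CJ versus AA-CJ the replicates disagreed. In CC-CJ versus CC, 31 of 36 members were below 0, against 56.3% of all genes, and 28 were below 0 on both arrays, against 38.2%. Medians over members were -0.16 and -0.16 on these arrays. Median centring gave 34 of 36 below 0, but it moved the median of all genes here by -0.57. Under the other scalings and filters tried, 28 of 36 (authors' table) to 32 of 36 (no background correction) were below 0. The counts were 35 of 39 when dim probes were kept and 28 of 32 when probes had to be well above background throughout. In CC versus AA-CJ, 31 of 36 were above 0 (50.4% of all genes were), with medians of 0.04 and 0.30 when arrays were taken by number, and under the other scalings and filters tried 28 of 36 (Agilent's processed signals) to 32 of 36 (no background correction) were above 0, with 34 of 39 and 28 of 32 under the filters just named. With replicate 2 of AA-CJ left out, 23 of 36 were above 0. In CC-CJ versus AA-CJ, 23 of 36 were above 0 (46.5% of all genes were), but 7 of 36 with median centring, which moved the median of all genes by -0.47. The medians on these arrays were -0.09 and 0.18, of opposite sign, and 11 of 36 members were above 0 on both, against 29.3% of all genes, and 6 below 0 on both, against 36.1%. With replicate 1 of this comparison left out, 29 of 36 were above 0, and with replicate 2 left out, 12 of 36 were.

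The replicates of astrocytes alone differed in these mRNAs. AA-CJ replicate 2 was below replicate 1 in 31 of 36 members, with a median difference of -0.30, whereas 50.8% of all genes were below and their median was -0.0035. Mcm6 differed most, with -0.72, followed by Kif20a and Plk1 with -0.63 each, Ube2c with -0.63, Ccnb2 with -0.62 and Cdc20 with -0.61. Rb1, Birc5, Rbl2, Ccne2 and Bub1 were the 5 members above 0, with 0.24, 0.21, 0.20, 0.10 and 0.03. Medians by role were -0.61 for anaphase promotion, -0.44 for cyclins and kinases, -0.33 for chromosomes and spindle, -0.27 for mitotic kinases and checkpoint, -0.22 for nucleotide synthesis, -0.15 for licensing and fork, and 0.06 for transcription factors and pocket proteins. With 1 sample on each side this difference has no test. As the ratio on the 2 arrays, it was seen for 27 of 32 to 34 of 36 members under every scaling and filter tried, with median centring shifting all genes by 0.11.

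CC-CJ levels of the members lay close together. Over the 4 arrays the CC-CJ level of a member spanned a median range of 0.13, against 0.19 over all genes, and mean levels over the members were 7.73 to 7.75. AA-CJ had means of 7.82 and 7.55, one above and one below all CC-CJ arrays, and CC had 7.91 and 7.93, above all others. Between the CC replicates the members had a median difference of -0.01, but Mcm2 was 0.59 higher in replicate 2, E2f1 and Mcm5 0.41 each, and Mcm6 0.33. The largest differences the other way were -0.24 for Gmnn and -0.23 for Kif20a.

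**Figure D4:**
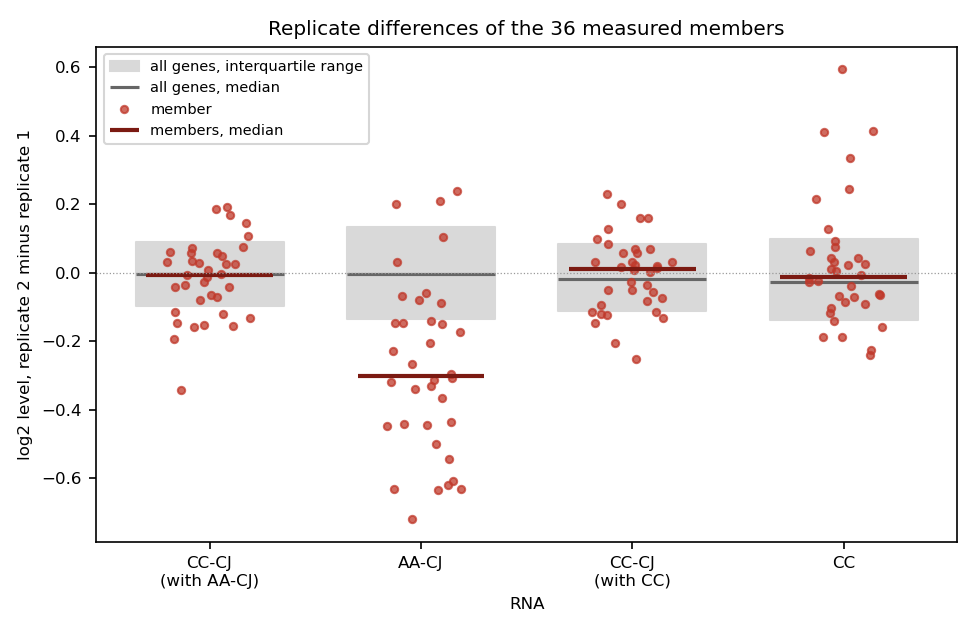
Log2 level in replicate 2 minus replicate 1 for each of the 36 members (points), in each RNA and, for CC-CJ, in both pairs of arrays, with the median of the members and the median and interquartile range of all genes. Members lie around 0 in CC-CJ and CC, and below it in AA-CJ, where their median was -0.30, under the loess normalization.

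The same was measured in 77 other genes of replication and mitosis, of which 52 had a probe and 38 were tested. AA-CJ replicate 2 was below replicate 1 in 31 of 38, with a median of -0.19. In CC-CJ versus AA-CJ, 1 of 38 was called higher, against 1.93% of all genes, and 1 lower, against 1.14%. The former was Pbk, a mitotic kinase, with 0.53 and 0.59 on the arrays and a mean of 0.56 ± 0.11 (limma, adjusted p = 0.0493). Its probe was well above background on 1 of 2 AA-CJ arrays. The latter was Hmgb2, a chromatin protein of proliferating cells, with -0.55 and -0.42, a mean of -0.48 ± 0.09 (limma, adjusted p = 0.0484). Hmgb2 was also below 0 in CC-CJ over CC, with -0.43 and -0.21. In CC versus AA-CJ, where a constant dye effect cancels, it was -0.17 ± 0.13 (limma, adjusted p = 0.559). Since CC-CJ alone carried Cy3, dye and culture cannot be told apart for the ratios of CC-CJ. Both calls were lost with no background correction, Agilent's processed signals, an offset of 16, a replicate block or either AA-CJ array left out. None was called in the other comparisons by limma. At an unadjusted p of 0.05 or less, 5 of 38 were higher (10.8% of all genes) and 2 lower (11.7%) in CC-CJ versus AA-CJ, 6 were lower in CC-CJ versus CC (11.7%), and 10 were higher in CC versus AA-CJ (11.4%). Medians were -0.01 in CC-CJ versus AA-CJ, -0.09 in CC-CJ versus CC and 0.12 in CC versus AA-CJ.

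Markers of other cells moved in the same comparisons, and their part in the members' values was not tested. In bulk RNA, fewer cells of a type and less RNA per cell cannot be told apart. Of 9 neuronal markers measured, 6 fell with cold jet of the co-culture, 5 were higher in CC than in AA-CJ and 3 were higher in CC-CJ over AA-CJ. Their mean log2 level was 9.56 and 9.70 for CC, 7.75 to 8.07 for CC-CJ, and 7.38 and 7.45 for AA-CJ. Of 4 microglial markers measured, 2 fell with cold jet, 2 were higher in CC than in AA-CJ, and Tyrobp was higher in CC-CJ over AA-CJ. Their mean level was 7.49 and 7.45 for CC, 6.86 to 7.06 for CC-CJ, and 6.57 and 6.72 for AA-CJ. Sox10, 1 of 7 markers of the oligodendrocyte lineage measured, fell with cold jet, and that list's mean was 8.31 and 8.52 for CC, 8.01 to 8.13 for CC-CJ, and 7.97 and 8.17 for AA-CJ. Dcn, 1 of 2 fibroblast markers measured, fell with cold jet and was higher in CC than in AA-CJ. Of 8 astrocyte markers, Aqp4 was called higher in CC-CJ over AA-CJ. Their mean level ranged from 9.38 to 9.45 for CC-CJ, with 9.31 and 9.33 for AA-CJ and 9.32 and 9.59 for CC, so astrocyte mRNA was read in every RNA. None of 3 progenitor markers measured was called. Of all these markers, Snap25, Syt1, Aif1, Csf1r and Mbp were kept through CC alone, so the filter itself favours a higher CC level for them. Among them, Snap25 and Aif1 are counted above as lower with cold jet and higher in CC than in AA-CJ.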

How the data were processed

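Whole rat genome arrays from Agilent, 4 in all, were read. The authors deposited spot intensities of Agilent Feature Extraction 9.5.1.1, positions on rn4, and Agilent's log10 ratio of Cy5 over Cy3. A table deposited by the authors holds log2 ratios after OLIN and OSLIN normalization, found from the scanner values to be Cy5 over Cy3, and was turned. Mean signals were corrected by normexp (offset 50) and normalized within arrays by loess (span 0.3) in limma 3.58.1, R 4.3.3, after control spots and spots with outlier marks were left out. Of 41012 probes, 24865 were kept, being well above background throughout 1 or more of the RNA groups. Gene means were fitted over 4 arrays with 1 coefficient per comparison (2 residual and 4.76 prior degrees of freedom), and p-values were adjusted by Benjamini-Hochberg over 21769 genes. Levels are per channel after Aquantile. Where a gene was not well above background on any array of a group, its ratio is given as read and is uncertain. Per-array values were given for members with an adjusted p of 0.05 or less in any comparison, for those of each role with the largest differences in CC-CJ versus AA-CJ (2) and in CC versus AA-CJ (1), and for Top2a, Pcna, Cdk1, Rb1 and Rbl2. Other values were chosen after they were seen. Alternatives changed background, offset, normalization, source of values, filter, probe choice, arrays and block. The fit was tested on simulated data with changes of 1 or 2 log2 units. Most differences of members were smaller, and the fit was not tested at their size. Members and lists were chosen with earlier results of these data known, and no set test was made.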

Additional observations from a re-analysis of the deposited data

How the results depend on the processing

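In CC versus AA-CJ, the 2 calls among members were 0 with no background correction, with Agilent's processed signals, with an offset of 16, with median centring, with probes well above background throughout and with a replicate block, and 1 with the authors' table. In CC-CJ versus AA-CJ, 1 member was called in the fit to the arrays of the comparison alone. In CC-CJ versus CC, 1 member, Cdc20, was called with the authors' table, the brightest probe or the arrays of the comparison alone. With an array left out in turn, 0 to 1 members were called in each comparison of CC-CJ and 0 to 3 in CC versus AA-CJ. Each such fit takes its spread from the comparison with both arrays left. Median centring, which corrects no trend with intensity, moved the median of all genes by -0.47 in CC-CJ versus AA-CJ and -0.57 in CC-CJ versus CC. It called 19 and 27 members lower, against 58.6% and 64.0% of all genes, with medians of -0.45 and -0.75, which relative to the median of all genes are 0.03 and -0.16. Under it, CC-CJ versus AA-CJ reversed to -0.47 for Bub1, -0.57 for Cdc20, -0.79 for Cdk1, -0.79 for Kif20a, -0.72 for Pcna, -0.67 for Pttg1 and -0.81 for Rb1, and CC-CJ versus CC to -1.15 for Cdk1, -0.96 for Rb1 and -0.67 for Rbl2.

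The members' median in CC-CJ versus CC was -0.14 with no background correction, -0.26 with Agilent's signals, -0.22 with an offset of 16, -0.14 with the authors' table, -0.16 with no filter, -0.20 with probes well above background throughout and -0.19 with the brightest probe. Without median centring, that in CC-CJ versus AA-CJ was 0.03 with the authors' table to 0.15 with Agilent's signals, and that in CC versus AA-CJ 0.17 with the authors' table to 0.34 with Agilent's signals. With an array left out the median in CC-CJ versus CC was -0.17 to -0.16, it was -0.09 to 0.18 in CC-CJ versus AA-CJ and 0.08 to 0.28 in CC versus AA-CJ. Of the other cell cycle genes, the 2 calls in CC-CJ versus AA-CJ became 0 with no background correction, Agilent's signals, an offset of 16 or a replicate block, 1 with probes well above background throughout and 19 with median centring, and were 0 to 3 with an array left out. In CC-CJ versus CC, 28 were called with median centring and 0 with any array left out. In CC versus AA-CJ, 1 was called with median centring, 2 with the authors' table and 0 to 1 with an array left out.

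Replicate numbers were not shown to pair the arrays. Over genes, the differences between replicates in the 2 comparisons had a correlation of -0.114, and a replicate block left 0 calls among members in every comparison. Numbers crossed as a replicate block, added after the data were seen, called 3 members in CC-CJ versus AA-CJ, 1 in CC-CJ versus CC and 3 in CC versus AA-CJ, and 4, 0 and 1 of the other genes. Over all genes, calls higher and lower numbered 68 and 8 with Agilent's signals, 265 and 77 with an offset of 16 and 153 and 40 with a replicate block in CC-CJ versus AA-CJ, 5 and 273 with Agilent's signals and 158 and 562 with the authors' table in CC-CJ versus CC, and 250 and 0 with Agilent's signals and 294 and 6 with a replicate block in CC versus AA-CJ. Median centring gave 712 and 12746 in CC-CJ versus AA-CJ and 648 and 13922 in CC-CJ versus CC. With an array left out, calls higher ran from 82 to 594, 6 to 142 and 333 to 596. The causes of these changes were not tested. CC versus AA-CJ could not be fitted from the arrays of 1 comparison. Mouse transcripts on rat probes, 2 arrays per comparison and fixed dyes limit all values.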
